A study of Homo sapiens with 88 samples.

Results

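H1417 is an established human small cell lung cancer (SCLC) line, and its response to the treatment called 552A was read from 4 Affymetrix HG-U133 Plus 2.0 arrays, out of 88 in the series. The 4 were chosen by title: 2 arrays of cells under 552A for 4 days and 2 arrays of cells under the vehicle DMSO for 4 days, which are all the arrays of this line. All cells grew in RPMI with serum, and the treatment protocol names DMSO or GSK2879552 at 1 µM, which inhibits the histone demethylase LSD1. Whether 552A is short for this compound is not said in the labels, and the arm keeps the name 552A here. The other 84 arrays hold 8 further SCLC lines under the same arms, of which H69 and H2171 were also sampled at day 4 only, and the series asks how LSD1 inhibition changes gene expression in SCLC. The labels give H1417 no class of sensitivity or resistance. They do not say that the arrays of an arm came from separate cultures, so p-values rest on the spread between arrays, which may be technical. H1417 is 1 line sampled at 1 time, and in bulk RNA fewer cells of a type and less RNA per cell cannot be told apart.

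LSD1, encoded by KDM1A, removes methyl groups from histone H3 and acts in repressor complexes with the CoREST proteins, histone deacetylases and HMG20B. Zinc finger factors such as GFI1, INSM1 and the SNAI proteins recruit these complexes to promoters. In the Notch pathway, ligands of the Delta and Jagged families bind Notch receptors on a neighbouring cell, the freed receptor domain joins RBPJ and a Mastermind coactivator, and genes of the HES and HEY families are turned on. Those repressors in turn restrain the neural and neuroendocrine transcription factors that give SCLC its character, and the pathway is usually held low in neuroendocrine SCLC cells.

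All levels are array signals in log2 units. A change is the mean under 552A less the mean under DMSO in the same units, given with the standard error (SE) of the fit. A gene was called where the adjusted p of limma's moderated test, two-sided and adjusted with Benjamini-Hochberg over all 15352 genes tested, was below 0.05. With 2 arrays against 2, an exact permutation test of a single gene cannot give a p below 0.333, so the calls rest on the fit, which pooled the spread over 42 groups of arrays. Across genes, replicate H1417 arrays correlated at 0.9945 under 552A and at 0.9926 under DMSO, below the median of 0.9968 over the 42 groups, which ran from 0.9705 to 0.9979. The SD of the difference between replicate arrays was 0.236 under 552A and 0.275 under DMSO, above the median of 0.178 over the groups. The H1417 arrays thus spread more than the median group whose pooled spread the calls rest on, and the 5 groups with a lower correlation than the DMSO arm all hold 1 or 2 of 6 arrays in doubt, none of them of H1417. The gap between the 3′ and 5′ ACTB probe sets of the H1417 arrays, which widens as RNA degrades, lay between -0.13 and 0.05, at the low end of the range of -0.13 to 1.67 over all arrays. The arrays in doubt are 5 with a gap over 0.8 and NCI-H446 DMSO replicate 2 at day 4. An arm with a mean under 6.09, the median over arrays of each array's lower quartile, is called dim. This limit was picked with the data in view, and a change against a dim arm may be a lower limit.

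Several neuroendocrine markers stood high in H1417. The 9 lines compared are all SCLC lines, so these ranks do not test that label. Among the 9 lines, H1417 under DMSO had the highest level of NCAM1, a neural adhesion molecule, of UCHL1, a neuronal ubiquitin hydrolase, of SYT1, a calcium sensor of exocytosis, and of the lineage factors NKX2-2 and ISL1. CHGA, the granule protein chromogranin A, and INSM1, a neuroendocrine repressor, ranked as number 2. Not all neuroendocrine markers ranked high. GRP was number 3, SYP and DDC number 5, CHGB number 6, SCG3 number 7, SYT4 number 8 and PAM number 9. Markers of other cells were not called by limma in H1417: 0 of 6 tested markers of immune cells and 0 of 15 of fibroblasts and endothelial cells, with 1 and 0 at an unadjusted p under 0.05. Over all genes 9.24% were called, and lists of this size would hold few calls at that share. PTPRC, the pan-leukocyte surface protein, stood at 4.04 and 4.00 under 552A and at 3.95 and 4.35 under DMSO, and LUM, a fibroblast proteoglycan, at 3.69 and 3.62 under 552A and at 3.86 and 3.91 under DMSO, all of them dim. Other markers of these lists were not dim. CD79A of the immune list had means of 8.10 under 552A and 8.37 under DMSO, and RGS5 of the other list had 8.25 and 8.37. All 3 MYC family genes and MAX, the shared partner of MYC proteins, had their lowest level of the 9 lines in H1417. MAX read 6.93 and 6.67 under 552A and 7.18 and 7.48 under DMSO, where the DMSO means of the other lines lay between 11.63 and 12.02.

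In H1417, 552A moved 1419 of the 15352 genes (9.24%), 849 of them higher (5.53%) and 570 lower (3.71%). A change of at least 1 was reached by 132 higher and 87 lower genes, and a change of at least 2 by 10 higher and 9 lower ones. Many changes were small: 580 of the called genes changed by less than 0.5, and the smallest called change was 0.21. The median change over all genes was 0.01. In 7010 genes (45.7%) the 2 arrays of 552A did not overlap with the 2 of DMSO, and 1408 of the called genes were among them. Fewer genes passed when 1 array was left out, with 982 without 552A replicate 1, 920 without 552A replicate 2, 1065 without DMSO replicate 1 and 930 without DMSO replicate 2. In a fit of the 4 H1417 arrays alone 577 passed. The single largest change was the loss of signal of NKX2-2, followed by the gain of LBH. The largest increases brought together SOX9, ZEB1, VIM, EFNB2, NTRK2 and HES1, and the largest decreases PTPRM, RASSF6, ETS1, GRP, TRPM8 and RET.

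**Figure D1:**
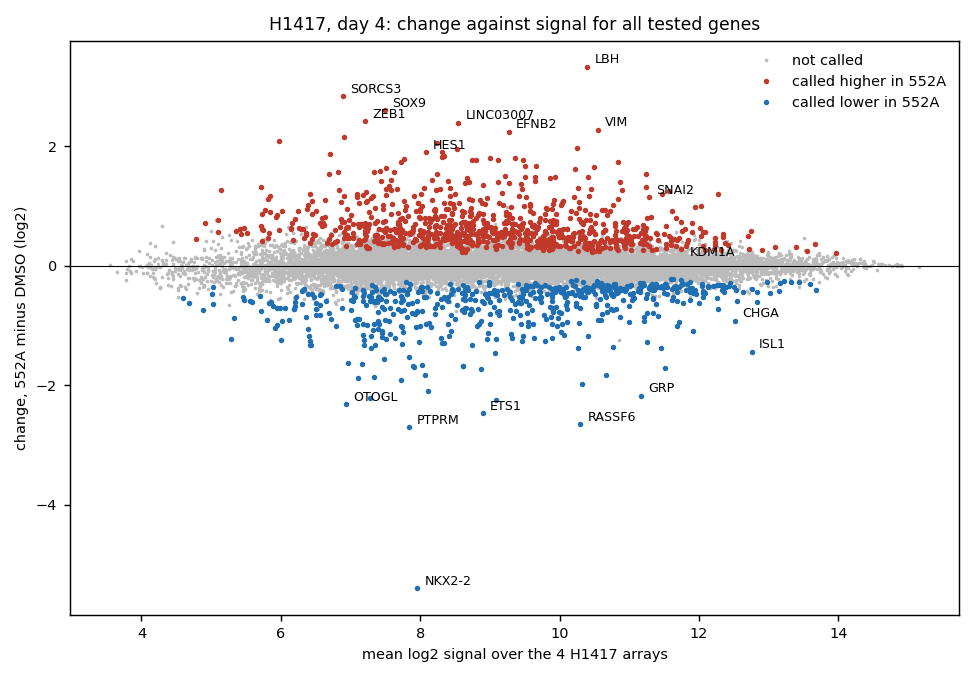
Each point is 1 of the 15352 tested genes, with its mean log2 signal over the 4 H1417 arrays on the x axis and its change, 552A minus DMSO on the log2 scale, on the y axis. Red points are the 849 genes called higher and blue points the 570 called lower, and grey points were not called. NKX2-2 stands alone at -5.40 at the bottom, LBH at 3.33 at the top, and KDM1A lies near 0 among the uncalled genes.

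**Figure D2:**
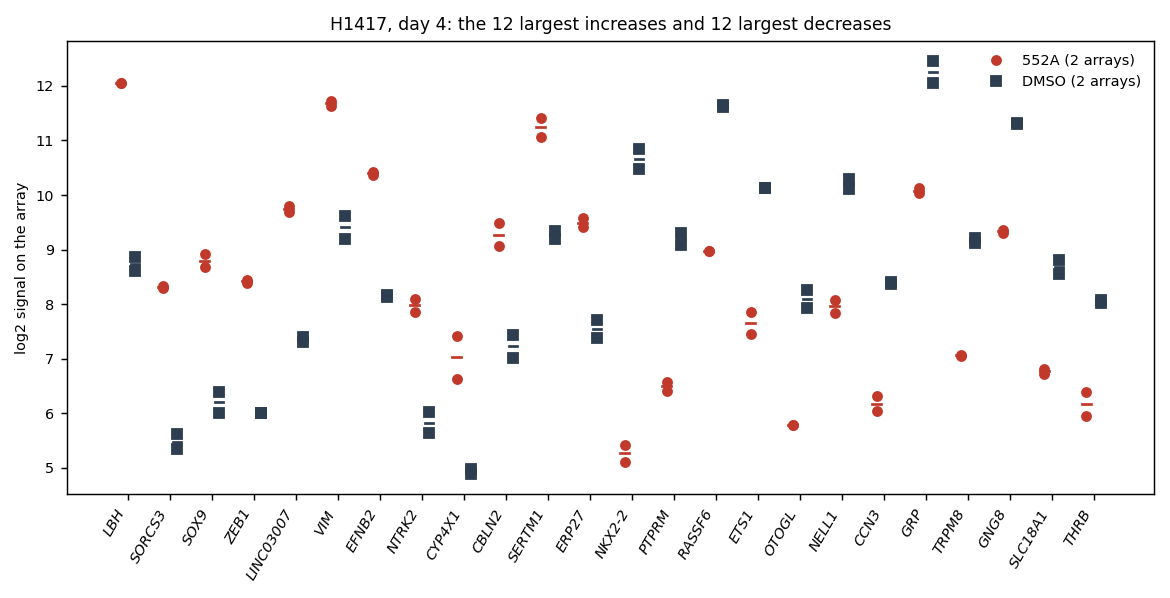
The log2 signal on each array is given for the 12 largest called increases, on the left, and the 12 largest called decreases, on the right, with the 2 arrays of 552A as red circles left of the 2 arrays of DMSO as dark squares; bars mark the arm means. In all 24 genes the arms do not overlap, and the widest gap is that of NKX2-2.

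NKX2-2, a homeobox factor of neural and endocrine cells, had levels of 5.11 and 5.41 in H1417 under 552A, against 10.84 and 10.48 under DMSO. Both 552A arrays were dim, while the DMSO level was the highest of the 9 lines, whose other means lay between 5.12 and 10.00. The change was -5.40 (SE 0.23, adjusted p = 9.49e-26), a 42.2-fold lower signal that may be a lower limit. ISL1, a LIM homeobox factor of neurons and endocrine cells, read 11.97 and 12.10 under 552A and 13.59 and 13.35 under DMSO. The arms did not overlap, and ISL1 fell by 1.44 (SE 0.16, adjusted p = 4.61e-10) while remaining bright. FOXA2, a forkhead factor of endoderm, fell by 1.20 (adjusted p = 0.000805), with 8.84 and 9.22 under 552A and 10.28 and 10.18 under DMSO. PAX6, a paired box factor of eye and endocrine cells, fell by 0.79 (adjusted p = 0.000306). These 4 lower genes kept their call with each of the 4 H1417 arrays left out in turn, and FOXA2 and PAX6 were picked after their values were seen.

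Other factors of the neural and neuroendocrine list rose in H1417. NKX2-1, the homeobox factor of lung and thyroid, had 11.60 and 11.54 under 552A, against 10.21 and 10.12 under DMSO. Its arms stood more than 1 apart at every array, and it rose by 1.41 (SE 0.16, adjusted p = 1.12e-09), with both of its probe sets higher. NFIB, a nuclear factor I protein that was also picked after its values were seen, rose by 0.52 (adjusted p = 0.000613). SOX1, a factor of neural progenitors, read 9.21 and 8.81 under 552A and 8.10 and 6.86 under DMSO. The DMSO arrays of SOX1 were far apart, so its change of 1.53 (adjusted p = 7.33e-05) came to 0.91 (adjusted p = 0.0832) without DMSO replicate 2, and 2 further probe sets changed by 0.28 and 0.04.

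Of the 30 tested members of that list, 4 rose and 8 fell (13.3% and 26.7%, beside 5.53% and 3.71% of all genes), and the median change was -0.07, beside 0.01 over all genes; 2 of the 4 and 4 of the 8 kept their call with each array left out. The other members called were ONECUT2 at 0.44, POU3F2 at -0.42, ASCL2 at -0.44, ST18 at -0.47 and PROX1 at -0.71, of which ONECUT2, POU3F2 and PROX1 were picked after their values were seen. ONECUT2, POU3F2 and ASCL2 each passed in 1 of the 4 fits with an array left out, with highest adjusted p of 0.19, 0.111 and 0.38. PROX1 had -0.25 (adjusted p = 0.558) without 552A replicate 1. ST18, a zinc finger factor of neuroendocrine cells, came to -0.46 (adjusted p = 0.0505) without 552A replicate 2 and to -0.41 (adjusted p = 0.0873) without DMSO replicate 1. INSM1 had 13.53 and 13.60 under 552A, against 13.64 and 13.61 under DMSO, a change of -0.06 that did not pass (adjusted p = 0.888). REST, the repressor of neuronal genes, changed by 0.16 (adjusted p = 0.715) with arms that overlapped, and POU2F3, the master factor of the tuft cell type of SCLC, was dim in both arms.

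SOX9, a progenitor factor of many epithelia, was the largest increase among transcription factors in H1417. It had 8.68 and 8.91 under 552A, against 6.00 and 6.39 under DMSO, the lowest DMSO level of the 9 lines. The change was 2.60 (SE 0.26, adjusted p = 4.61e-11), and a second probe set rose by 2.87. The list of tuft cell genes, which holds SOX9, had 2 members higher and 1 lower of 16 (12.5% and 6.25%, beside 5.53% and 3.71% of all genes), with a median change of 0.00. The others called were IL17RB, a cytokine receptor, at 0.56 (adjusted p = 0.000659), and ASCL2, given above, which passed in 1 of the 4 fits with an array left out.

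Of 32 tested Notch genes of H1417, 6 rose and 1 fell (18.8% and 3.12%, beside 5.53% and 3.71% of all genes), with a median of 0.02. Among receptors, NOTCH1 read 9.30 and 9.51 under 552A and 8.15 and 7.86 under DMSO. The arms were more than 1 apart, and NOTCH1 rose by 1.40 (SE 0.17, adjusted p = 7.39e-09), while its second probe set changed by 0.14. NOTCH2, at its highest DMSO level of the 9 lines, rose by 0.69 (adjusted p = 0.00928), with 10.21 and 10.39 under 552A and 9.65 and 9.57 under DMSO. Its value was 0.60 (adjusted p = 0.136) without 552A replicate 2 and 0.65 (adjusted p = 0.0887) without DMSO replicate 2. Neither NOTCH3 nor NOTCH4 passed, both at -0.10.

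Among the ligands, JAG1 had 10.16 and 10.35 in H1417 under 552A, against 8.61 and 8.92 under DMSO, the lowest DMSO level of the 9 lines. JAG1 rose by 1.49 (SE 0.18, adjusted p = 4.77e-09), with 5 of its 6 probe sets higher. JAG2 rose by 0.57 (adjusted p = 0.00113; picked after its values were seen). DLL3, the Delta-like protein that dampens Notch signals, had 8.48 and 8.56 under 552A and 9.02 and 8.74 under DMSO. The arms of DLL3 did not overlap, but its change of -0.36 did not pass (adjusted p = 0.159), and neither did DLL1 at 0.26.

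The effector step was mixed. HES1, the repressor that Notch turns on in many tissues, had 9.04 and 9.01 under 552A, against 7.01 and 7.24 under DMSO. The arms lay well apart, and HES1 rose by 1.90 (SE 0.21, adjusted p = 3.41e-10), a 3.73-fold change. A second probe set of HES1 rose by 1.67 and the third changed by -0.01. HEY1, a related repressor picked after its values were seen, changed by 0.56 (adjusted p = 0.00333), or by 0.49 (adjusted p = 0.0744) without 552A replicate 1. MAML2, a Mastermind coactivator, went the other way, with 7.18 and 6.94 under 552A and 8.71 and 8.76 under DMSO. It fell by 1.67 (SE 0.19, adjusted p = 7.83e-10), while MAML1, MAML3 and RBPJ did not pass, at 0.01, 0.10 and -0.08. A second probe set of MAML2 changed by -0.30.

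Of the 6 higher Notch genes of H1417, 4 kept their call with each array left out, as did MAML2, the 1 that fell.

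**Figure D3:**
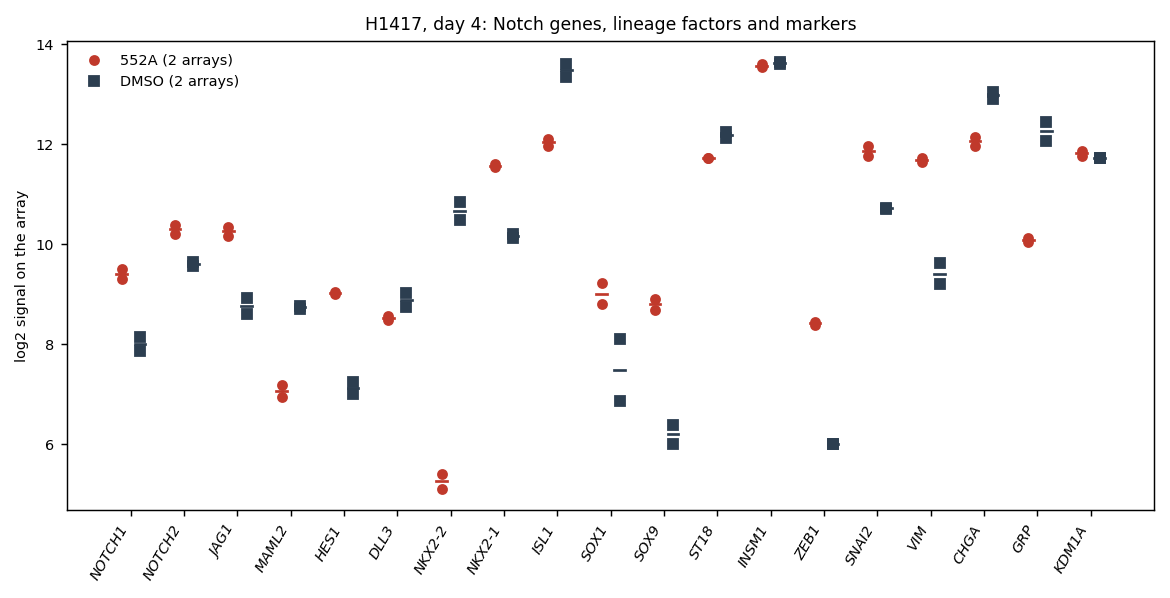
Log2 signal on each H1417 array for Notch genes, lineage factors, mesenchymal factors, neuroendocrine markers and KDM1A, with 552A as red circles left of DMSO as dark squares and bars for the arm means. NOTCH1, JAG1, HES1, SOX9, ZEB1 and VIM lie higher under 552A, NKX2-2, MAML2, ISL1, CHGA and GRP lie lower, and the arm means of INSM1 and KDM1A differ by 0.06 and 0.10.

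The promoters of HES1, ZEB1 and NKX2-2 are shown because these 3 genes carry the Notch, mesenchymal and lineage changes of H1417 and because LSD1 and Notch act at such regions. They are the 300 bases from 250 before to 50 after the gene start in RefSeq, build GRCh38.p14, written 5′ to 3′ on the strand of the gene. Capitals mark letters of 4 searched motifs on either strand: CACCTG, the E-box bound by ZEB and SNAI repressors; AATCANNGC for GFI1; CAGGGGGC for INSM1; and GTGGGAA for RBPJ, the last added after the Notch values were seen. HES1 lies at chr3:194135898-194136197 on the plus strand, ZEB1 at chr10:31318167-31318466 on the plus strand and NKX2-2 at chr20:21522640-21522939 on the minus strand.

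HES1: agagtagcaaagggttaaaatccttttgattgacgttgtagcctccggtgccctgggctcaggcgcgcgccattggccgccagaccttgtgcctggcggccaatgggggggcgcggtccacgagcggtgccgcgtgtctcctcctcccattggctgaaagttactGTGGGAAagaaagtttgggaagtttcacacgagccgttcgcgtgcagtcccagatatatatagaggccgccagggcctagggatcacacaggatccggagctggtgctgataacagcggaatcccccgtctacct

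ZEB1: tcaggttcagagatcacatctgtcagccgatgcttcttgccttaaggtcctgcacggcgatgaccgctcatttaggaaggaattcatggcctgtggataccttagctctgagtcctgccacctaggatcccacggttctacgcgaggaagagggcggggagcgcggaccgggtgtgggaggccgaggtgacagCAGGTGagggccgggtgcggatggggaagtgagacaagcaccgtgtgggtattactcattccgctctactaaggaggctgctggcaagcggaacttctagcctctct

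NKX2-2: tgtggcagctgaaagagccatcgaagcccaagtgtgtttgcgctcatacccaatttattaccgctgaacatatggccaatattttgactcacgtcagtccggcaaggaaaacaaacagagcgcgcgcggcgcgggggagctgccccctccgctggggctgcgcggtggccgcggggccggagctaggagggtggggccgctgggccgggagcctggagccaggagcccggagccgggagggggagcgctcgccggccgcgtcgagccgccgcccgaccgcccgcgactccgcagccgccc

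The HES1 promoter held GTGGGAA beginning 85 bases before the start, and the ZEB1 promoter held CAGGTG, the E-box read on the other strand, beginning 57 bases before it. The NKX2-2 window held none of the 4. CACCTG stood in 18.7% of the 670 promoters of genes called higher, in 21.6% of the 450 of genes called lower and in 19.2% of the 12236 of all tested genes. GTGGGAA stood in 5.82% of the higher, 4.89% of the lower and 5.94% of all tested, AATCANNGC in 4.78%, 3.33% and 3.86%, and CAGGGGGC in 5.97%, 6.0% and 5.97%. Over all 27305 promoters of the RefSeq table the shares were 20.6% for CACCTG, 6.28% for GTGGGAA, 3.71% for AATCANNGC and 4.27% for CAGGGGGC. A match is a run of letters and says nothing of binding in H1417.

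Of 28 tested neuroendocrine markers of H1417, 5 fell and 1 rose (17.9% and 3.57%, beside 3.71% and 5.53% of all genes), with a median change of 0.00. CHGA had 11.97 and 12.14 under 552A, against 13.05 and 12.90 under DMSO. The arms were apart, and CHGA fell by 0.93 (SE 0.09, adjusted p = 2.16e-11). GRP, the gastrin-releasing peptide that SCLC cells secrete, read 10.12 and 10.04 under 552A and 12.45 and 12.06 under DMSO. It fell by 2.17 (SE 0.33, adjusted p = 1.19e-06), a 4.51-fold lower signal. PAM, the enzyme that amidates peptides such as GRP, fell by 0.92 (adjusted p = 3.17e-09) to 8.13 and 8.70 under 552A, against 9.18 and 9.50 under DMSO. SCG2, a granule protein, fell by 0.59 (adjusted p = 0.00298; picked after its values were seen), as did SYT1 (adjusted p = 9.8e-06).

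All 5 lower markers kept their call with each array left out. The 1 higher was DLK1, a Notch-related surface protein, at 1.11 (adjusted p = 0.0181) from a dim DMSO arm, and it passed in 1 of the 4 fits with an array left out. NCAM1, UCHL1, ENO2, TAGLN3 and SYP did not pass, with changes between -0.24 for SYP and 0.11 for ENO2.

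The machinery of vesicle release gave 4 lower genes of 30 tested in H1417 (13.3%, beside 3.71% of all genes) and none higher, where 0 had an unadjusted p under 0.05 in limma, with a median change of -0.07, and all 4 kept their call with each array left out. SLC18A1, the vesicular monoamine transporter of endocrine cells, had 6.81 and 6.72 under 552A, against 8.55 and 8.81 under DMSO, and fell by 1.91 (SE 0.20, adjusted p = 1.42e-10). SV2B, a vesicle glycoprotein, fell by 1.18 (adjusted p = 2.08e-05) and UNC13B, a priming factor of release, by 0.66 (adjusted p = 6.42e-08). SYT1, given above, was the other one. SYNPR, a synaptic vesicle membrane protein, and SCGN, a calcium sensor of endocrine cells, also fell, by 1.63 (adjusted p = 2.13e-07) and 1.56 (adjusted p = 1.67e-08).

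Of 36 tested ion channel genes of H1417, 8 fell and 2 rose (22.2% and 5.56%, beside 3.71% and 5.53% of all genes), with a median of 0.01. The channel TRPM8, a sensor of cold and menthol, had 7.07 and 7.05 under 552A, against 9.12 and 9.20 under DMSO. Its arms were about 2 apart at every array, and it fell by 2.10 (SE 0.19, adjusted p = 1.4e-12), while its second probe set changed by 0.04. SCN2A, a sodium channel, fell by 1.53 (adjusted p = 1.91e-05), CACNA1A, the pore of P/Q-type calcium channels, by 1.37 (adjusted p = 1.17e-05), and KCND2, a potassium channel dim under 552A, by 1.18 (adjusted p = 1.69e-05). KCNJ6, CHRNA3, KCNB2 and SCN3A, picked after their values were seen, had -1.09, -0.98, -0.91 and -0.64, and all of the 8 but SCN3A kept their call with each array left out. SCN3A came to -0.56 (adjusted p = 0.109) without DMSO replicate 1. The 2 higher, SCN9A at 0.55 and KCNK3 at 0.44, did not keep theirs: SCN9A came to 0.41 (adjusted p = 0.246) without DMSO replicate 2 and KCNK3 to 0.33 (adjusted p = 0.165) without 552A replicate 2.

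Of 43 tested mesenchymal genes of H1417, 6 rose and 1 fell (14% and 2.33%, beside 5.53% and 3.71% of all genes), with a median of 0.05. ZEB1, a repressor of epithelial genes, had 8.39 and 8.44 under 552A, against 6.00 and 6.00 under DMSO. The DMSO arm was dim, and ZEB1 rose by 2.42 (SE 0.15, adjusted p = 5.99e-19), with 3 of its 4 probe sets higher. VIM, the intermediate filament vimentin, read 11.72 and 11.64 under 552A and 9.62 and 9.19 under DMSO. VIM rose by 2.27 (SE 0.17, adjusted p = 1.51e-15), a 4.82-fold change between arms that did not overlap. SNAI2, a repressor of the SNAI family, had 11.77 and 11.95 under 552A and 10.73 and 10.70 under DMSO. It rose by 1.14 (SE 0.28, adjusted p = 0.00284), or by 1.05 (adjusted p = 0.0535) without 552A replicate 2.

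Of the 6 higher mesenchymal genes, 4 kept their call with each array left out. ITGAV, an integrin subunit at its lowest DMSO level of the 9 lines, rose by 0.65 (adjusted p = 6.63e-05) and CDH2, N-cadherin, by 0.56 (adjusted p = 5.39e-06; picked after its values were seen). The last 2 of the list depended on single arrays: CALD1, at 0.45, had 0.32 (adjusted p = 0.321) without 552A replicate 2, and MMP2, at -0.58, had -0.32 (adjusted p = 0.43) without 552A replicate 1. ZEB2 at 0.19 and FN1 at -0.39 did not pass.

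Epithelial genes gave a mixed picture. CDH1, E-cadherin, had 12.02 and 12.14 in H1417 under 552A, against 12.24 and 12.17 under DMSO, and EPCAM, an epithelial adhesion molecule, had 13.73 and 13.88 under 552A and 13.95 and 13.89 under DMSO; both changed by -0.12 and did not pass. OVOL1 and OVOL2, zinc finger factors that hold cells in the epithelial state, rose by 1.40 (SE 0.14, adjusted p = 1.43e-11) and 0.82 (adjusted p = 0.000156). OVOL1 had 9.92 and 9.72 under 552A, against 8.40 and 8.43 under DMSO. Of 34 tested epithelial genes 4 rose and 2 fell (11.8% and 5.88%, beside 5.53% and 3.71% of all genes), the 4 also with each array left out and the 2 not, with a median of -0.02. The others higher were DSP, a desmosome protein, at 0.62 (adjusted p = 8.73e-05), and OCLN, a tight junction protein, at 0.49 (adjusted p = 0.000286). The lower were the junction proteins DSG2 at -0.56, or -0.40 (adjusted p = 0.0649) without 552A replicate 1, and JUP at -0.35, or -0.27 (adjusted p = 0.258) without that array. OCLN and JUP were picked after their values were seen.

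YAP and TEAD pathway genes gave 4 higher of 25 tested in H1417 (16%, beside 5.53% of all genes) and none lower, with 1 lower at an unadjusted p under 0.05 in limma and a median of 0.12. AMOTL2, a target and inhibitor of YAP, rose by 0.95 (adjusted p = 0.000543) from a dim DMSO arm, FRMD6, an upstream Hippo protein, by 0.86 (adjusted p = 0.000122) and VGLL4, a TEAD cofactor, by 0.61 (adjusted p = 5.86e-05). MOB1B, a Hippo kinase adaptor picked after its values were seen, had 0.52 (adjusted p = 0.012), or 0.42 (adjusted p = 0.191) without 552A replicate 2. YAP1 had 6.40 and 6.34 under 552A, against 6.27 and 6.49 under DMSO, overlapping arms with a change of -0.01. CCN1, a secreted YAP target, changed by 0.58 and did not pass (adjusted p = 0.346).

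Axon guidance genes were among the lists with the most increases in H1417: 11 of 42 tested rose and 2 fell (26.2% and 4.76%, beside 5.53% and 3.71% of all genes), with a median change of 0.15, beside 0.01 over all genes. Of these, 8 of the 11 and 1 of the 2 kept their call with each array left out. Ephrins are membrane-bound ligands that signal to Eph receptors on the neighbouring cell. EFNB2, the ligand ephrin-B2, had 10.37 and 10.42 under 552A, against 8.13 and 8.17 under DMSO. The replicate arrays lay within 0.05 of each other, and EFNB2 rose by 2.24 (SE 0.17, adjusted p = 2.46e-15). EFNA1, a second ephrin picked after its values were seen, rose by 1.16 (adjusted p = 2.62e-11). Among receptors, EPHB1 read 11.91 and 12.10 under 552A and 10.53 and 10.43 under DMSO, and rose by 1.53 (SE 0.15, adjusted p = 3.62e-11). EPHA4 had 8.86 and 8.92 under 552A, against 7.52 and 7.37 under DMSO, and rose by 1.44 (SE 0.13, adjusted p = 8.25e-13), with all 5 probe sets higher.

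Secreted and receptor proteins of other guidance families moved as well. SEMA3C, a secreted semaphorin, rose by 1.26 (adjusted p = 8.69e-07) and PLXNA1, a semaphorin receptor, by 0.70 (adjusted p = 5.31e-05). NEO1, a receptor of netrins and repulsive guidance molecules, and PLXNA2, a further semaphorin receptor, rose by 0.60 (adjusted p = 2.39e-05) and 0.58 (adjusted p = 0.00254). DCC, the netrin receptor, had 6.16 and 6.40 under 552A, against 7.41 and 7.19 under DMSO, and fell by 1.02 (SE 0.17, adjusted p = 1.29e-05). The 4 genes that lost their call in some fit were RGMA, at 1.03 and at 0.87 (adjusted p = 0.0722) without DMSO replicate 1, EFNA5, at 0.67 and at 0.41 (adjusted p = 0.152) without 552A replicate 2, UNC5A, at 0.60 and at 0.47 (adjusted p = 0.214) without 552A replicate 1, and EPHA3, at -0.79 and at -0.60 (adjusted p = 0.187) without that array. All of these but EFNB2, EPHB1, EPHA4, SEMA3C and PLXNA1 were picked after their values were seen.

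Growth factor receptors and the feedback genes of the MAPK cascade had 12 of 38 tested higher and 3 lower in H1417 (31.6% and 7.89%, beside 5.53% and 3.71% of all genes), with a median of 0.06. Of these, 8 of the 12 and 2 of the 3 kept their call with each array left out. The receptors went both ways. NTRK2, the receptor of brain-derived neurotrophic factor, had 8.09 and 7.86 under 552A, against 6.02 and 5.63 under DMSO. Its DMSO arm was dim, it rose by 2.15 (SE 0.24, adjusted p = 5.25e-10), and 5 of its 6 probe sets were higher, though the probe set taken without the filter changed by 0.50 (adjusted p = 0.0687). RET, the receptor of the GDNF family, had 6.59 and 6.23 under 552A, against 8.38 and 8.15 under DMSO, and fell by 1.86 (SE 0.21, adjusted p = 7.83e-10). Other probe sets of RET changed by -0.47 and -0.40. IGF1R, the insulin-like growth factor receptor, rose by 0.58 (adjusted p = 5.61e-05), while ERBB4 at 0.76 and ERBB3 at 0.53 lost their call without DMSO replicate 1, at 0.50 (adjusted p = 0.228) and 0.53 (adjusted p = 0.165), among other arrays.

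Several feedback inhibitors that MAPK signalling induces rose. SPRY2, a Sprouty inhibitor, had 8.69 and 9.04 in H1417 under 552A, against 7.53 and 7.66 under DMSO, and rose by 1.27 (SE 0.18, adjusted p = 1.9e-07). SPRED1, a related inhibitor dim under DMSO, rose by 1.53 (adjusted p = 5.09e-07). The MAPK phosphatases DUSP6, with 9.68 and 9.86 under 552A against 8.56 and 8.56 under DMSO, and DUSP4, with 9.24 and 8.95 under 552A against 7.65 and 8.13 under DMSO, rose by 1.21 (adjusted p = 5.13e-05) and 1.20 (adjusted p = 5.99e-07). ETV1, an ETS factor downstream of the cascade and dim under DMSO, rose by 1.17 (adjusted p = 1.19e-06). SPRED2 had 0.49, or 0.42 (adjusted p = 0.108) without 552A replicate 2, and ETV5 had 0.56, or 0.34 (adjusted p = 0.362) without DMSO replicate 1. Of the growth factor binding proteins, IGFBP7 rose by 0.59 (adjusted p = 0.0014) and IGFBP3 fell by 1.20 (adjusted p = 3.38e-06), while IGFBP2, at -0.53, passed in none of the fits with an array left out, at most at an adjusted p of 0.149. Apart from NTRK2, RET, SPRED1 and SPRY2, the members of this list were picked after their values were seen.

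Mitosis genes were lower in H1417 by a small and even amount. All 38 tested had a negative change, between -0.48 and -0.04, with a median of -0.28, beside 0.01 over all genes. Of these, 13 were called lower (34.2%, beside 3.71% of all genes) and none higher. ANLN, a scaffold of cytokinesis, had 10.31 and 10.21 under 552A, against 10.80 and 10.68 under DMSO, and fell by 0.48 (SE 0.10, adjusted p = 0.000686). CCNA2, cyclin A2, had 11.23 and 11.31 under 552A, against 11.72 and 11.74 under DMSO, and fell by 0.46 (SE 0.11, adjusted p = 0.00272). The spindle checkpoint genes BUB1 and BUB3 fell by 0.42 (adjusted p = 0.00596) and 0.39 (adjusted p = 0.00284).

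Few of the calls on single mitosis genes held when an array was left out. Of the 13, ANLN alone kept its call with each array left out. Between 3 and 6 members were called when 1 array was left out, the fewest without 552A replicate 1, none by limma in the fit of the 4 H1417 arrays alone, where 24 had an unadjusted p under 0.05, and 29 in the fit without the 6 arrays in doubt. Without 552A replicate 1, CCNA2 came to -0.42 (adjusted p = 0.0525), BUB1 to -0.40 (adjusted p = 0.0639) and BUB3 to -0.32 (adjusted p = 0.103). The direction was steadier than the calls, with 37 or 38 of the 38 lower in every one of these fits. MKI67, the proliferation marker Ki-67, had 10.34 and 10.32 under 552A and 10.58 and 10.73 under DMSO, a change of -0.32 that did not pass (adjusted p = 0.571).

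S phase genes gave 4 lower and 1 higher of 36 tested in H1417 (11.1% and 2.78%, beside 3.71% and 5.53% of all genes), with a median of -0.10 and 31 below 0. RFC3, a subunit of the clamp loader of replication, had 11.25 and 11.22 under 552A, against 12.18 and 12.18 under DMSO. The arms were close to 1 apart at every array, and RFC3 fell by 0.95 (SE 0.10, adjusted p = 2.73e-10). GINS4, a part of the replicative helicase, fell by 0.73 (adjusted p = 1.09e-05), while GINS2, of the same complex, rose by 0.37 (adjusted p = 0.000597), with 12.51 and 12.62 under 552A and 12.18 and 12.21 under DMSO. MCM10, at -0.42, passed in none of the fits with an array left out (highest adjusted p = 0.172), and E2F2, at -0.33 and picked after its values were seen, had -0.18 (adjusted p = 0.627) without DMSO replicate 2.

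Genes of arrest and apoptosis gave 5 higher and 5 lower of 37 tested in H1417 (13.5% each, beside 5.53% and 3.71% of all genes), with a median of -0.06. GADD45A, a stress-induced growth arrest gene, had 8.73 and 8.95 under 552A, against 10.07 and 10.12 under DMSO, and fell by 1.25 (SE 0.25, adjusted p = 0.000202). CDKN2D, the CDK inhibitor p19, fell by 0.66 (adjusted p = 4.92e-05), and these were the only ones of the 10 to keep their call with each array left out. CDKN1A, the CDK inhibitor p21, had 11.94 and 12.17 under 552A, against 11.42 and 11.52 under DMSO. Its arms did not overlap, and its change was 0.59 (SE 0.15, adjusted p = 0.00578), or 0.47 (adjusted p = 0.152) without 552A replicate 2 and 0.54 (adjusted p = 0.0719) without DMSO replicate 1. HRK, a BH3-only killer protein, had 0.68 (adjusted p = 0.00346), or 0.59 (adjusted p = 0.0753) without DMSO replicate 1. The remaining 6, picked after their values were seen except GADD45G, were BMF at 0.56, APAF1 at 0.47, BID at 0.33, RBL2 at -0.32, BCL2L1 at -0.38 and GADD45G at -0.67, with highest adjusted p between 0.114 for BMF and 0.61 for RBL2 when an array was left out.

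Of 25 tested genes of LSD1 and its partner proteins, 1 rose and 1 fell in H1417 (4% each, beside 5.53% and 3.71% of all genes), with a median change of -0.02. KDM1A had 11.86 and 11.77 under 552A, against 11.72 and 11.72 under DMSO. The arms did not overlap, but the change of 0.10 (SE 0.09) did not pass (adjusted p = 0.676), and RCOR1, the CoREST protein, had -0.11 (adjusted p = 0.769). HMG20B, a CoREST complex member at its highest DMSO level of the 9 lines, fell by 0.37 (adjusted p = 0.0138), with 10.20 and 10.27 under 552A and 10.59 and 10.63 under DMSO. It came to -0.34 (adjusted p = 0.135) without 552A replicate 1, to -0.40 (adjusted p = 0.0539) without DMSO replicate 1 and to -0.35 (adjusted p = 0.115) without DMSO replicate 2. The gene that rose was SNAI2, given above. GFI1 at 0.17 and GFI1B at -0.18 did not pass.

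The MYC network had 2 lower genes of 12 tested in H1417 (16.7%, beside 3.71% of all genes), neither of which kept its call with each array left out. MXD3, a MAX partner, had -0.45, or -0.33 (adjusted p = 0.265) without 552A replicate 2. MAX changed by -0.53 (adjusted p = 0.00075), or by -0.40 (adjusted p = 0.0785) without 552A replicate 2 and by -0.38 (adjusted p = 0.101) without DMSO replicate 2, and its 5 probe sets disagreed, from -0.53 to 0.51. MYC was dim in both arms, with a change of -0.00. MYCN had 0.10 (adjusted p = 0.824) and MYCL 0.49 (adjusted p = 0.0852).

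Wnt pathway genes gave 2 higher and 3 lower of 36 tested in H1417 (5.56% and 8.33%, beside 5.53% and 3.71% of all genes), with a median of 0.04. LBH, a transcription cofactor induced by Wnt, had 12.06 and 12.06 under 552A, against 8.87 and 8.60 under DMSO. The arms were over 3 apart, and the change of 3.33 (SE 0.21, adjusted p = 1.59e-18) was the largest increase of all genes tested, close to 10.03-fold. Of the receptors, FZD7 rose by 1.32 (adjusted p = 1.79e-06) from a dim DMSO arm, with its second probe set at -0.07, and FZD5 fell by 0.88 (adjusted p = 2.87e-07). WNT11, a ligand picked after its values were seen, fell by 0.81 (adjusted p = 7.98e-07), and LGR5, the R-spondin receptor, had -0.83 (adjusted p = 0.0107), or -0.74 (adjusted p = 0.128) without 552A replicate 1, -0.81 (adjusted p = 0.0734) without DMSO replicate 1 and -0.85 (adjusted p = 0.0621) without DMSO replicate 2.

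Matrix and integrin genes had 4 higher and 3 lower of 38 tested (10.5% and 7.89%, beside 5.53% and 3.71% of all genes), with a median of 0.05. CCN3, a matricellular protein, had 6.03 and 6.31 in H1417 under 552A, against 8.38 and 8.41 under DMSO, and fell by 2.22 (SE 0.28, adjusted p = 1.51e-08). The neighbouring collagen genes COL4A6 and COL4A5, chains of basement membrane collagen, fell by 1.18 (adjusted p = 6.19e-09) and 0.97 (adjusted p = 0.000114), while LAMA5, a laminin chain, rose by 0.79 (adjusted p = 9.8e-06). Beside ITGAV, the other 2 higher genes depended on single arrays and were picked after their values were seen: TNC, at 0.71, had 0.44 (adjusted p = 0.404) without DMSO replicate 1, and LAMA1, dim in both arms at 0.57, had 0.49 (adjusted p = 0.158) without 552A replicate 2. Lysosome genes gave 3 higher and 2 lower of 28 (10.7% and 7.14%, beside 5.53% and 3.71% of all genes), with a median of -0.03. TFEB, the factor that drives lysosome genes, had 7.77 and 7.78 under 552A, against 9.43 and 9.48 under DMSO, and fell by 1.68 (SE 0.15, adjusted p = 6.82e-13), while GAA and NPC2, lysosomal proteins, rose by 0.65 (adjusted p = 4.55e-05) and 0.45 (adjusted p = 0.000259). CTSH, a cathepsin picked after its values were seen, had 0.43, or 0.34 (adjusted p = 0.0574) without DMSO replicate 2, and LAMP2, a lysosomal membrane protein, had -0.49, or -0.44 (adjusted p = 0.0851) without 552A replicate 1.

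In H1417, of 19 class I genes, 2 rose and 2 fell (10.5% each, beside 5.53% and 3.71% of all genes). HLA-C, a class I heavy chain, fell by 0.86 (SE 0.11, adjusted p = 2.64e-08), with 10.77 and 10.78 under 552A and 11.69 and 11.58 under DMSO. HLA-C was the one to keep its call with each array left out. Its other probe sets changed by -0.63, -0.44 and -0.07. All probe sets of HLA-C and HLA-B are of the cross-hybridising kind (_x_at), so their falls cannot be assigned to these genes alone. HLA-B, at -0.40, had -0.34 (adjusted p = 0.156) without DMSO replicate 1, and B2M, the light chain picked after its values were seen, had 0.30, or 0.17 (adjusted p = 0.457) without DMSO replicate 2. TAP2, a peptide transporter dim in both arms, was called at 0.41 (adjusted p = 0.0485) although its arms overlapped, and came to -0.11 (adjusted p = 0.82) after quantile normalization. Its other probe sets were all lower, at -0.11, -0.07 and -0.04. Whether the quantile setting read the gene from another of these was not tested. The interferon and myeloid lists that follow had 6.67% and 50% of their tested members called higher, beside 5.53% of all genes. The myeloid share was 2 of 4, as the filter on dim probe sets kept only 4 of the 16 members. Without that filter 2 of the 16 were called higher, the median change was 0.005, and 9 members were higher and 7 lower. The interferon list had MX1 at 0.63 and PARP14 at 0.69 among 30 tested, with highest adjusted p of 0.0996 and 0.0669 when an array was left out. Of the 4 tested myeloid genes linked to LSD1 inhibition in blood cells, VCAN, a proteoglycan, had 0.79, or 0.69 (adjusted p = 0.0705) without 552A replicate 2, and CD86, a costimulatory receptor, had 0.60, or 0.49 (adjusted p = 0.168) without that array.

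Single genes passed in several remaining lists of H1417. Over all genes 5.53% were called higher and 3.71% lower. The shares were 5.88% and 2.94% of the stress list and 4% and 8% of the HOX list. They were 2.44% and 4.88% of the TGF-beta and BMP list. The immediate early and the cholesterol and fatty acid lists had 8.33% and 3.85% called higher. TRIB3, a stress-induced pseudokinase at its lowest DMSO level of the 9 lines, had 8.80 and 8.90 under 552A, against 7.90 and 7.89 under DMSO, and rose by 0.95 (SE 0.10, adjusted p = 6.39e-11), among 2 higher and 1 lower of 34 amino acid and unfolded protein stress genes; PHGDH had 0.46 and MTHFD2, picked after its values were seen, -0.30, and neither kept its call (highest adjusted p 0.0878 and 0.282). Among 25 HOX genes, HOXC5 rose by 0.71 (adjusted p = 4.74e-06) and HOXD11 fell by 0.82 (adjusted p = 7.2e-05), while HOXD10, at -0.74, had -0.63 (adjusted p = 0.088) without 552A replicate 1. Of 41 TGF-beta and BMP genes, LTBP3, which tethers latent TGF-beta, rose by 0.61 (adjusted p = 0.00181), and BMPR1B at -0.52 and LTBP1 at -0.45 lost their call, at -0.31 (adjusted p = 0.378) and -0.32 (adjusted p = 0.314), without DMSO replicate 2. Among immediate early genes, ZFP36L2, an RNA decay factor, rose by 0.75 (adjusted p = 0.000422), and ZFP36L1, at 1.07, had 0.54 (adjusted p = 0.271) without 552A replicate 2. In the cholesterol and fatty acid list TM7SF2, a sterol reductase, had 0.48, or 0.32 (adjusted p = 0.133) without DMSO replicate 2. None of 22 ribosome biogenesis genes and none of 24 DNA methylation and polycomb genes was called by limma, with 1 and 2 of them at an unadjusted p under 0.05 and medians of -0.00 and 0.03. In either direction 9.24% of all genes were called.

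**Figure D4:**
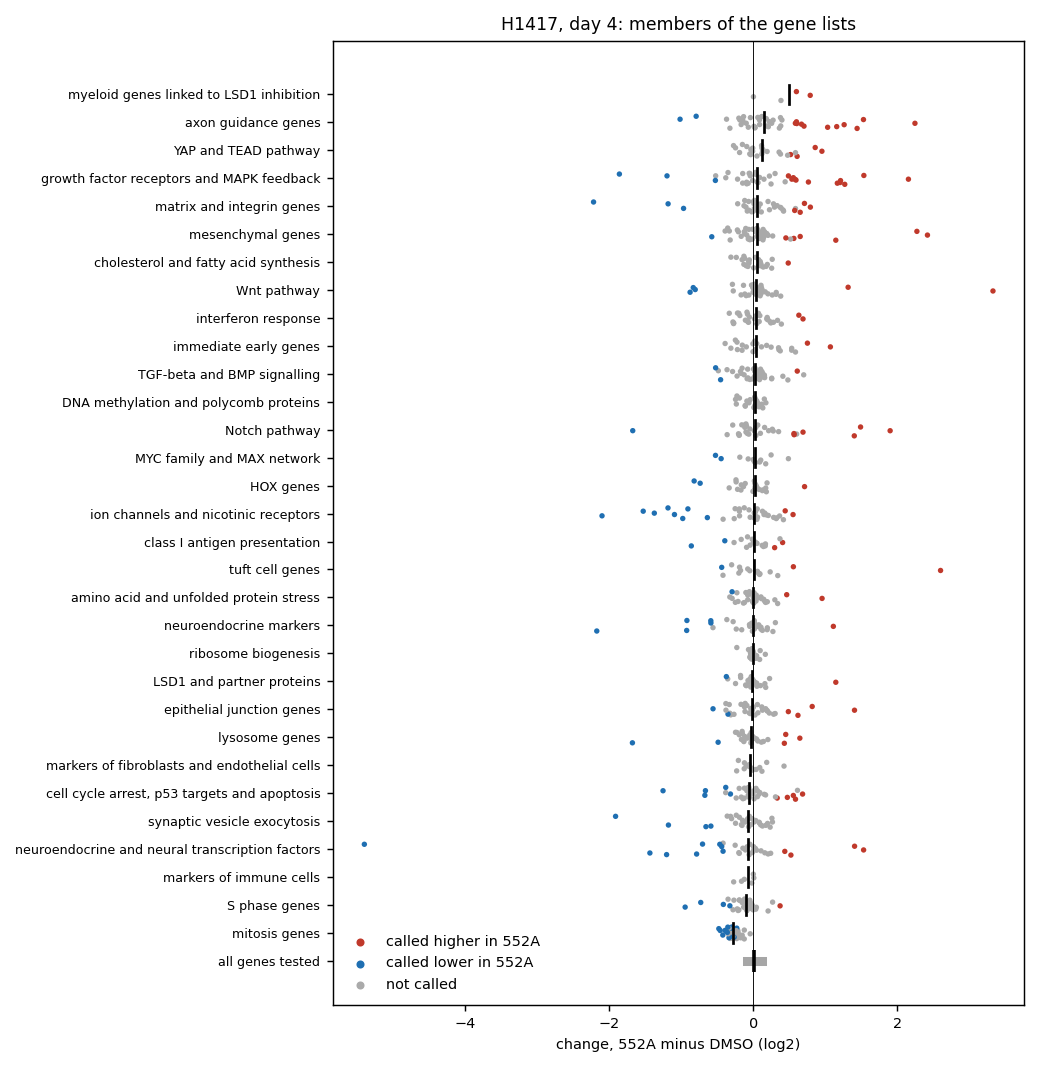
Each row is 1 gene list and each point 1 tested member, placed by its change in H1417, 552A minus DMSO on the log2 scale; red points were called higher, blue points lower, grey points were not called, and black bars are list medians. The bottom row gives the median and, as a grey band, the quartiles of all 15352 genes. Mitosis genes lie wholly below 0 with a median of -0.28, axon guidance genes have a median of 0.15, and most list medians lie close to that of all genes, with single members far out.

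Among the largest H1417 increases outside these lists, SORCS3, a sorting receptor of neurons, had 8.33 and 8.30 under 552A, against a dim 5.34 and 5.62 under DMSO. It rose by 2.84 (SE 0.14, adjusted p = 4.88e-23). LINC03007, a long noncoding RNA, rose by 2.39 (adjusted p = 7.57e-17) and CBLN2, a synapse organizer, by 2.05 (adjusted p = 6.21e-10). CYP4X1, a cytochrome P450 dim under DMSO, rose by 2.09, SERTM1 by 1.97, ERP27, a chaperone-binding protein, by 1.95, PPP2R2B, a subunit of protein phosphatase 2A, by 1.91 and SLC16A9, a transporter dim under DMSO, by 1.87. SOCS2, a suppressor of cytokine signalling, read 9.29 and 9.23 under 552A and 7.42 and 7.44 under DMSO, and rose by 1.83 (adjusted p = 2.17e-10). SPOCK3, a matrix proteoglycan, rose by 1.81, although its DMSO arrays stood at 9.02 and 7.90. FAM43A, SETD7, a lysine methyltransferase, MMP16, a membrane-bound metalloproteinase, PCP4, a calmodulin regulator, MPPED2, ZNF423, a zinc finger factor, MPP3, a membrane scaffold, and MRO rose by 1.74 to 1.81. Second probe sets of PPP2R2B and SETD7 changed by 0.14 and -0.04, and those of FAM43A and MPPED2 by 0.58 and 2.31. Other probe sets of MMP16 changed by 0.05 to 0.64.

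Among the largest decreases outside the lists, PTPRM, a receptor tyrosine phosphatase, had 6.57 and 6.41 in H1417 under 552A, against 9.09 and 9.30 under DMSO. It fell by 2.70 (SE 0.18, adjusted p = 4.56e-17), with both probe sets lower. RASSF6, a protein of the RAS association family, had 8.97 and 8.97 under 552A, against 11.64 and 11.61 under DMSO, and fell by 2.65 (SE 0.13, adjusted p = 3.76e-23). ETS1, an ETS transcription factor, read 7.46 and 7.86 under 552A and 10.13 and 10.13 under DMSO, and fell by 2.47 (SE 0.20, adjusted p = 2.68e-14). OTOGL, dim under 552A, fell by 2.32 and NELL1, a secreted protein, by 2.25. GNG8, a G protein subunit, THRB, a thyroid hormone receptor, RGS16, a regulator of G protein signalling, OLFM3, CHST2, a sulfotransferase, MS4A8, PPP1R17, a phosphatase inhibitor, TMEM176A, HMX2, a homeobox factor, and PDGFD, a growth factor, fell by between 1.97 for GNG8 and 1.64 for PDGFD. Each of these genes kept its call with each array left out. Second probe sets of NELL1, PPP1R17 and GNG8 changed by 0.07, 0.13 and -0.01, and those of CHST2 and PDGFD by -0.29 and -0.28. The other probe sets of RASSF6, ETS1, THRB, RGS16 and OLFM3 were all lower.

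The response of H1417 was then set against the mean response of the other 8 lines at day 4. The difference was called in 934 genes (6.08%), 539 higher and 395 lower in H1417. That test takes its error from the spread between arrays. With each line as a single replicate, which counts the spread between lines, 76 genes passed, 45 higher and 31 lower. NKX2-2 differed by -4.57 (adjusted p = 3.61e-21), and by the line test too (adjusted p = 0.0442). It changed by -5.40 in H1417, against -1.50 in SHP-77, -0.33 in NCI-H526, 0.00 in NCI-H510, -0.69 in COLO668, -2.12 in NCI-H146, 0.18 in NCI-H446, -1.99 in H69 and -0.15 in H2171. Of those, 3 changes were called, all lower. The DMSO level of NKX2-2 was highest in H1417, and the lowest of the other lines was dim under DMSO. A line with little signal under DMSO can fall little, and the part of the starting level in this difference was not tested. SOX9, LINC03007, CBLN2 and GAP43, a growth cone protein, had called differences of 2.29, 2.34, 2.20 and 1.82, and their adjusted p in the line test was 0.0393, 0.0056, 0.0153 and 0.0408.

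ZEB1 and VIM changed more in H1417 than the mean of the others, by differences of 1.37 (adjusted p = 2.23e-09) and 1.39 (adjusted p = 6.52e-08), but the line test gave 0.878 and 0.772. ZEB1 changed by 2.42 in H1417, against 3.11 in NCI-H526, 2.33 in NCI-H510 and 1.54 in H69, with values from -0.19 to 0.93 in the other lines. VIM changed by 2.27 in H1417, against 2.52 in NCI-H510, 2.07 in NCI-H146 and 1.29 in NCI-H446, and was higher in 8 of 8 lines. LBH was similar, at 3.33 in H1417, against 2.59 in COLO668 and 2.32 in NCI-H510, and from -0.73 to 1.52 in the rest. HES1, with a difference of 1.48 (adjusted p = 1.36e-06), changed by 1.90 in H1417, against a range of -0.19 to 0.99 in the other lines, and did not pass the line test either (adjusted p = 0.244).

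PTPN14, a phosphatase that restrains YAP, had 8.13 and 7.76 under 552A, against 6.99 and 7.95 under DMSO, overlapping arms with a change of 0.48 (SE 0.20, adjusted p = 0.163). The other 8 lines had changes from 0.48 to 1.69, called in 7 of them. The difference of -0.78 passed (adjusted p = 0.0162), but not in the line test (adjusted p = 0.565). The H1417 value rests on which DMSO array is used: it was -0.00 without DMSO replicate 1 and passed without DMSO replicate 2.

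Of the 1419 genes called in H1417, 3 changed in the opposite direction in each of the other 8 lines, and all 3 rose in H1417. PLXNA1 changed by 0.70 in H1417, against -0.49 to -0.03 in the other lines. STEAP3, an iron reductase, had 9.94 and 10.05 under 552A and 9.48 and 9.59 under DMSO, a change of 0.47 (adjusted p = 0.000819), against -0.78 to -0.06 in the other lines, where it was called lower in 4. GINS2 changed by 0.37 in H1417, against -0.30 to -0.01. Conversely, 80 called genes, 62 higher and 18 lower, had the same sign in all 8 other lines, among them VIM, SNAI2, JAG1, RASSF6, GRP, TFEB, ST18 and HMG20B. The same counts were not made over all tested genes. Whether 3 and 80 are many or few was therefore not tested.

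**Figure D5:**
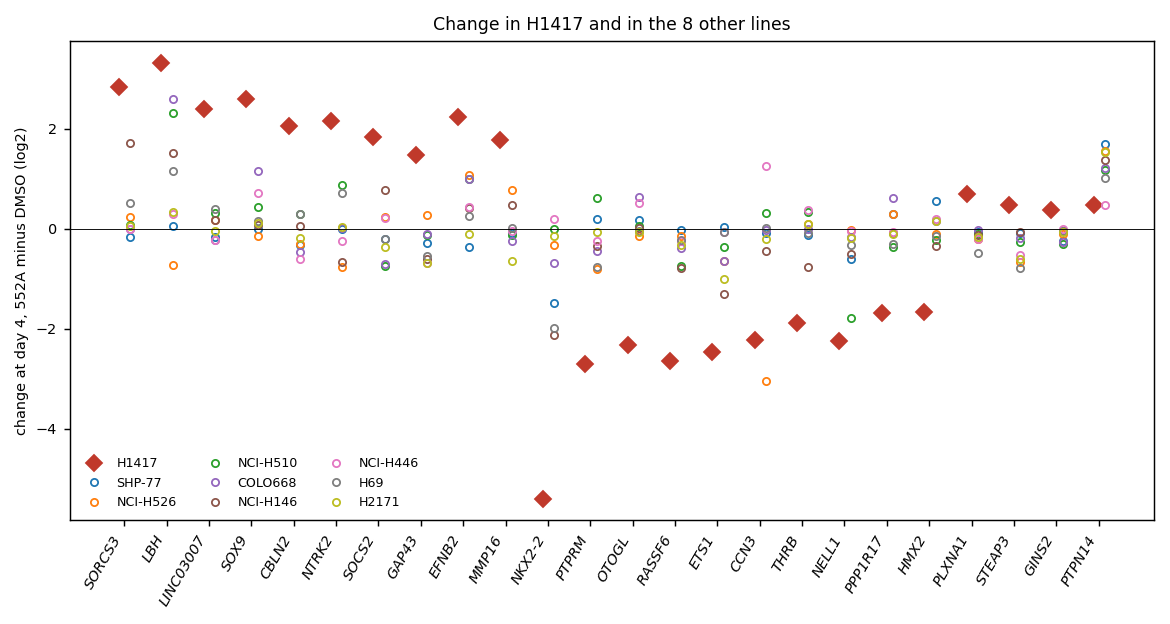
Change at day 4, 552A minus DMSO on the log2 scale, in H1417 (red diamonds) and in the 8 other lines (open circles, 1 colour a line) for the genes of largest called difference (10 per direction), the 3 genes of opposite sign in all other lines, and PTPN14. For most genes the diamond lies apart from all circles; for CCN3 the NCI-H526 circle at -3.04 lies beyond the H1417 value of -2.22, and for PTPN14 the diamond lies at the low end of the circles.

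Compared in pairs with the lines also sampled only at day 4, H1417 differed from H69 in 648 genes (4.22%) and from H2171 in 795 (5.18%). In H69, 641 genes were called, and those called in the same direction in both lines were 13.9% of the H1417 calls and 30.7% of the H69 calls. In H2171, 308 genes were called, and the shared ones made 4.51% of the H1417 calls and 20.8% of the H2171 calls. Over the 8 lines the correlation of changes with H1417 across all genes, which are not independent, ran from r = 0.026 in NCI-H446 to 0.338 in NCI-H146, and the share of H1417 calls also called in a line ran from 1.2% in SHP-77 to 14.9% in NCI-H510 and COLO668. The lines themselves had called changes in 0.502% of genes in SHP-77, 5.91% in NCI-H526, 4.7% in NCI-H510, 4.28% in COLO668, 1.09% in NCI-H146, 10.7% in NCI-H446, 4.18% in H69 and 2.01% in H2171. Of the 1419 calls in H1417, 782 were called in the same direction in none of the other lines at day 4.

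The mitosis genes, with a median of -0.28 in H1417, had a median of -0.01 in the mean of the other 8 lines, and 5 of the 38 differed by a called amount, all lower in H1417. Axon guidance genes had medians of 0.15 in H1417 and 0.01 in the others, with 9 called differences higher and 2 lower in H1417. Growth factor receptor and MAPK feedback genes had 8 higher and 4 lower, with medians of 0.06 in H1417 and 0.04 in the others. Ion channels had 1 higher and 7 lower, and Notch genes 4 higher and 1 lower. In all 15352 genes 3.51% of differences were called higher and 2.57% lower.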

How the data were processed

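RNA samples of 9 SCLC lines, 88 in all, were hybridised to HG-U133 Plus 2.0 arrays, and the deposited values are log2 signals per probe set. What the authors did to obtain them is not given in the sources used here. Values ran from 3.15 to 15.18, and the medians of the H1417 arrays were 7.41 and 7.38 under 552A and 7.38 and 7.37 under DMSO, so the scale is log2, and the normalization method is unknown; no depth exists for arrays, and the number of arrays limits the precision.

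Of 54675 probe sets, 41091 named 1 gene in the platform annotation, 1801 several, 11721 none and 62 were controls. Probe sets were kept where at least 1 group's mean passed the median of all values, 7.41, and a gene was read from its kept probe set with the highest mean, cross-hybridising ones (_x_at) last, leaving 15352 of 19775 genes. limma 3.58.1 in R 4.3.3 was fitted to all 42 groups, with 46 residual degrees of freedom. It was checked on simulated data that gave every array the pooled spread of the fit. That check cannot show whether the error is too small for H1417, whose arrays spread more than the median group. Arrays were grouped by their titles. Across all genes the correlation of same-numbered deviations was -0.1416, which does not show that pairing is absent. Several genes of the cholesterol and fatty acid list were higher in replicate 1 than in replicate 2 in both arms. In that order, HMGCS1 read 10.39 and 8.71 under 552A and 10.41 and 8.84 under DMSO. SCD read 10.51 and 9.89 under 552A and 10.33 and 9.93 under DMSO, and SREBF1 read 8.07 and 7.69, and 8.20 and 7.87. Not all members did: PMVK read 9.99 and 10.13 under 552A and 10.10 and 9.84 under DMSO. The main fit took no account of the replicate number. Alternatives covered normalization, filter, probe set rule, arrays fitted, intensity trend, a replicate block and each array left out.

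The members and the 31 gene lists were chosen with earlier results of these data known. Named genes were the 25 largest called changes per direction, listed regulators, the 4 largest changes of each list, the 10 largest called differences from the other lines per direction, and the genes of opposite sign in all other lines (at most 5). Any other named gene was chosen after its values were seen, as were the limit for dim, the GTGGGAA motif and the crossed block. Promoters came from RefSeq, GRCh38.p14; 12236 of the tested genes matched by symbol.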

Additional observations from a re-analysis of the deposited data

Results flagged for a closer look

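The changes below differed between H1417 and the mean of the other 8 lines at day 4 by limma's test of the difference itself, which takes its error from the spread between arrays. Differences are H1417 minus the other lines on the log2 scale. Levels under DMSO can differ between lines, and a gene with little signal under DMSO can fall little. The part of the starting level in these differences was not tested.

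On the higher side, SORCS3, LBH, LINC03007, SOX9, CBLN2 and NTRK2 differed by 2.53, 2.38, 2.34, 2.29, 2.20 and 2.15 (adjusted p from 1.86e-19 for SORCS3 to 1.82e-08 for SOX9). SOCS2, GAP43, EFNB2 and MMP16 followed with 1.96, 1.82, 1.78 and 1.77. On the lower side, NKX2-2 differed by -4.57 (adjusted p = 3.61e-21), PTPRM by -2.47, OTOGL by -2.46, RASSF6 by -2.29, ETS1 by -1.96 and CCN3 by -1.94 (adjusted p = 2.33e-06). THRB, NELL1, PPP1R17 and HMX2 had -1.87, -1.79, -1.72 and -1.69.

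Among regulators and markers, HES1 differed by 1.48 and the receptor NOTCH1 by 1.15 (adjusted p = 4.66e-06), ZEB1 by 1.37 and VIM by 1.39. CHGA differed by -0.66 (adjusted p = 1.16e-06), GRP by -1.25 (adjusted p = 0.0156) and PTPN14 by -0.78 (adjusted p = 0.0162). The 3 genes that went against all 8 other lines, PLXNA1, STEAP3 and GINS2, differed by 0.88, 0.86 and 0.51.

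With each line taken as 1 replicate, 12 of these 30 differences passed: those of LINC03007, SOX9, CBLN2, GAP43, NKX2-2, PTPRM, OTOGL, RASSF6, THRB, PPP1R17, HMX2 and PLXNA1. The other 18 did not. Of all 934 called differences, 75 passed with each line as 1 replicate. Most of the 30 were picked for a large difference, or for the opposite sign in all other lines, in these same values. Their share is therefore no separate support. No arm of H1417 has enough arrays to test a single array as an outlier.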

How the results depend on the processing

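The 1419 calls of the H1417 response came to 577 in a fit of its 4 arrays alone (370 higher, 207 lower; 557 of the 1419 among them) and to 2324 without 6 arrays in doubt of other lines (5 with an ACTB 3′ minus 5′ signal over 0.8, and NCI-H446 DMSO replicate 2 at day 4), all 1419 among them. Leaving out 1 H1417 array gave 920 to 1065 calls. The difference from the other 8 lines, 934 genes, came to 1730 without those 6 arrays, to 603 to 707 with 1 array left out and to 76 with each line as 1 replicate. The differences from H69 and H2171, 648 and 795 genes, came to 496 to 595 and to 604 to 671 with 1 array left out. The fit of the 4 arrays alone holds no other line and was not run for the differences. The other settings stayed within 1.5 times: quantile normalization gave 1677 response calls (860 higher, 817 lower), no filter 1380, the mean of probe sets 1440, day 4 arrays alone 1130. With the replicate number as a block the response had 1378 calls, the difference from the other lines 920, from H69 682 and from H2171 817, and with the numbers crossed, chosen after seeing the data, the response had 1381. Whether the numbers pair the arrays is not known, and these values are given for completeness.

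For single genes, 2553 results kept direction and side of the threshold, 132 no longer passed, 28 newly passed and 16 turned sign; the cause was not tested. Of those 16, only TAP2 was called: -0.106 after quantile normalization. That setting gave MYC 0.0155. COL3A1 had 0.115 without the filter and YAP1 0.0918 as the mean of its probe sets. With 1 array left out, AIF1 lay between -0.333 and 0.00455, HBB between -0.236 and 0.193, LY96 between -0.0905 and 0.0932, MYC between -0.0347 and 0.0303, MYCN between -0.189 and 0.395, PTPN14 between -0.00257 and 0.954, PTPRC between -0.326 and 0.0753, REST between -0.00433 and 0.323 and YAP1 between -0.122 and 0.104. All but REST, which turned without 552A replicate 1, and PTPN14, without DMSO replicate 1, turned without DMSO replicate 2; HBB, LY96 and YAP1 did so without 552A replicate 2 as well.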
